A study of Rattus norvegicus with 12 samples.

Results

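The 10 genes described here encode the small heat shock proteins Hspb1, Hspb6, Hspb7, Hspb8 and Cryab, and the cytosolic chaperones and cofactors Hspa8, Hsph1, Dnajb1, Hsp90aa1 and Bag3. They were taken by symbol from the deposited tables, where each of the 10 symbols matched 1 of 18469 genes. The tables hold RNA-seq values for neonatal rat ventricular myocytes (NRVMs), heart muscle cells of newborn Sprague-Dawley rats grown in medium with insulin, transferrin and selenium. The 12 libraries form 4 groups of 3 biological replicates. In siNeg the cells received a negative control siRNA, in siSlc25a26 an siRNA against Slc25a26, the mitochondrial carrier of S-adenosylmethionine, and both of these groups were untreated. In siNeg.PE and siSlc25a26.PE the same siRNAs were followed, by the labels 12 h later, by 36 h of phenylephrine (PE), which acts on α-adrenergic receptors and drives hypertrophic growth of cardiomyocytes. The study's methods describe an siRNA against another gene, Nap1l5, and other times for these steps, so the siRNA is named here by the labels. The levels of Slc25a26 and Nap1l5 are given below, and they leave uncertain which siRNA the cells received. The cells were separated from fibroblasts by a density gradient, the labels name only 1 siRNA against Slc25a26, and the bulk RNA comes from all cells in the dish, so fewer cells of a type and less RNA per cell cannot be told apart.

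Small heat shock proteins are ATP-independent holdases. They share an α-crystallin domain, form oligomers, and bind unfolding proteins before these aggregate. In striated muscle they are abundant and associate with the sarcomere and with intermediate filaments such as desmin. Refolding is done by the ATP-driven HSP70 machine, in which a J-domain protein delivers the substrate and a nucleotide exchange factor of the HSP110 or BAG type releases it, and some clients pass on to HSP90. Many of these genes are transcribed through heat shock factor 1 (HSF1), which binds arrays of GAA and TTC units known as heat shock elements.

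Total estimated counts per library ranged from 24770972 to 28709049, and the 10 most abundant genes took 6.12% to 10% of them, with the highest shares in the libraries labelled siSlc25a26.PE. Slc25a26 was 31.4 ± 2.001 CPM (counts scaled to library size with TMM factors, mean ± SD, n = 3) in siNeg and 15.1 ± 0.612 CPM in siSlc25a26, at a log2 difference of -1.08 (edgeR adjusted p = 1.08e-05). With PE, siNeg.PE held 102 ± 14.1 CPM and siSlc25a26.PE 102 ± 3.69 CPM (log2 fold change -0.0062, edgeR adjusted p = 0.969), so the targeted gene does not bear out the label of the siSlc25a26.PE libraries, and the word labelled is kept with them throughout. Nap1l5, a nucleosome assembly protein relative and the target that the study's methods name, was looked up after other values were seen. It was low, at 3.58 ± 1.096 CPM in siNeg, 2.03 ± 0.678 in siSlc25a26, 16.3 ± 2.97 in siNeg.PE and 7.91 ± 1.036 in the libraries labelled siSlc25a26.PE. Its log2 difference was -0.84 between siSlc25a26 and siNeg, with overlapping libraries, and -1.05 under PE, without overlap (edgeR adjusted p = 0.0397 and 0.000636). Nppa, the atrial natriuretic peptide gene that marks the response to PE, rose with PE by 4.63 on the log2 scale in siNeg and by 4.51 between siSlc25a26 and the libraries labelled siSlc25a26.PE (edgeR adjusted p = 2.22e-06 and 1.99e-07). Nppa was also higher in siSlc25a26 than in siNeg, by 1.14 (edgeR adjusted p = 0.000562). In the libraries labelled siSlc25a26.PE it was higher than in siNeg.PE by 1.02 (edgeR adjusted p = 0.000259). Neither pair of groups overlapped. The study reports lower Nppa after knockdown of Nap1l5. Cardiomyocyte markers were abundant in every library, with 10 of 10 listed markers in the tables and none at 0 in any group. Their summed level was 22620 to 25190 CPM in siNeg, 27040 to 27870 in siNeg.PE, 20000 to 23000 in siSlc25a26 and 26610 to 27950 in the libraries labelled siSlc25a26.PE. The 10 fibroblast markers were also present, none at 0, and summed to 25090 to 27860 CPM in siNeg, 13360 to 13950 in siNeg.PE, 14660 to 16650 in siSlc25a26 and 10430 to 11540 in the libraries labelled siSlc25a26.PE. The 6 mural markers summed to between 983 and 1938 CPM over all groups, the 8 endothelial markers to at most 45.1 CPM and the 8 macrophage markers to at most 39.1 CPM. These lists moved with the groups, and their part in the results was not tested. The cardiomyocyte ratio given below is a description and carries no test.

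Per unit of gene length, Hspb7 and Cryab were the most abundant of the 10 genes. In siNeg, Hspb7 stood at 1029 ± 23.3 FPKM (the authors' level per unit of gene length and library size) and Cryab at 979 ± 46.4 FPKM (SD, n = 3), and their libraries overlapped. They were followed by Hspa8 at 520 ± 18.2, Hspb1 at 368 ± 29.6, Hspb6 at 297 ± 10.2, Bag3 at 141 ± 6.22 and Hspb8 at 108 ± 4.02 FPKM, each without overlap with its neighbour. Hsp90aa1 at 55.1 ± 13.5 and Dnajb1 at 42.3 ± 0.660 FPKM overlapped, and Hsph1 was lowest at 20.8 ± 1.25 FPKM. In the other 3 groups Cryab stood above Hspb7 without overlap, reaching 2677 ± 63.3 against 1837 ± 141 FPKM in the libraries labelled siSlc25a26.PE. In those libraries Hspb1 (900 ± 37.7 FPKM) and Hspb6 (780 ± 77.4 FPKM) also stood above Hspa8 (616 ± 20.2 FPKM), which was above both in siNeg.

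**Figure D1:**
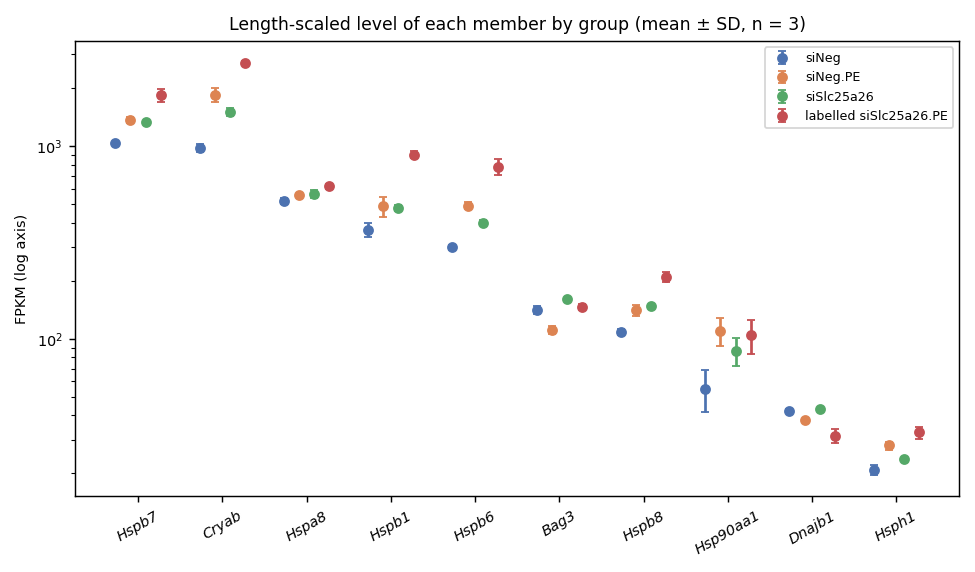
Length-scaled level of the 10 genes in FPKM on a log axis, ordered by the siNeg mean, with points at the mean of 3 libraries per group and bars of 1 SD. Hspb7 and Cryab lead in each group, and Hsph1 and Dnajb1 are lowest, with Dnajb1 at 31.4 FPKM in the libraries labelled siSlc25a26.PE and Hsph1 at 20.8 FPKM in siNeg.

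The sequences before the transcription start are shown for 5 of these genes because each holds units of the kind that HSF1 binds and because the 5 differ in how they moved. They are the 250 bases before the start in the RefSeq promoter table of build GRCr8, read 5′ to 3′ along the gene, with each heat shock element in capitals. The table holds a promoter for 8 of the 10 genes, all but Cryab and Hsp90aa1. A 2-unit element was written as GAANNTTC or TTCNNGAA, which read the same on both strands, and a 3-unit element as GAANNTTCNNGAA or TTCNNGAANNTTC, each of which contains 2-unit matches.
Hspb1 (chr12:26432302-26432551, minus strand): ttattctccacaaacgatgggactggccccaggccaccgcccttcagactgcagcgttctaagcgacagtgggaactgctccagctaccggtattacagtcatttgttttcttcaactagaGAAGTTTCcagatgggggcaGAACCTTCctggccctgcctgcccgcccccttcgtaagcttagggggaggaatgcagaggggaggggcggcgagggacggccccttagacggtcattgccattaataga
Hspb6 (chr1:94934122-94934371, plus strand): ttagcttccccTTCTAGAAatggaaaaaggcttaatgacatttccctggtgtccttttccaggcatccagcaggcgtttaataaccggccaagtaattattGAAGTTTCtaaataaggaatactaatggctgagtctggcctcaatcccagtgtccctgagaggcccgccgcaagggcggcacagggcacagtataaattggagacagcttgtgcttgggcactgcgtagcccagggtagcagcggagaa
Hspa8 (chr8:50080264-50080513, plus strand): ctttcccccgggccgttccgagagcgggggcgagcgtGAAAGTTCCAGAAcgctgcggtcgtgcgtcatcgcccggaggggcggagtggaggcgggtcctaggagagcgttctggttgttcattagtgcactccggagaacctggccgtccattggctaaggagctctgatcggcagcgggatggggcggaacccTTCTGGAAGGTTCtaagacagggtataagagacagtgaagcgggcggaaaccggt
Hsph1 (chr12:10427118-10427367, plus strand): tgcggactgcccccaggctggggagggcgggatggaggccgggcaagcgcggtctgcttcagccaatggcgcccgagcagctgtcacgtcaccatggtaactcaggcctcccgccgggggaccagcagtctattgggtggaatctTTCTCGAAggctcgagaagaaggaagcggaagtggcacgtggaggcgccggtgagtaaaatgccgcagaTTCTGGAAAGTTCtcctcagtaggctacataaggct
Dnajb1 (chr19:41431142-41431391, minus strand): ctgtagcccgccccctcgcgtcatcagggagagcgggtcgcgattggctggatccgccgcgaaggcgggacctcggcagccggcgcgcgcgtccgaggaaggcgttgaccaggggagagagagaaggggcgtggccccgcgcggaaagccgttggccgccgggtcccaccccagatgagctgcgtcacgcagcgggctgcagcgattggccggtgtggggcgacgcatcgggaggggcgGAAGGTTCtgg

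Hspa8 held 3-unit elements at 213 to 201 and at 55 to 43 bases before the start, and Hsph1 held one at 36 to 24 bases before it. Of all 33469 promoters of 300 bases (250 before and 50 after the start), 0.798% held a 3-unit element, and Hspa8 and Hsph1 were the 2 genes with one among the 8. A 2-unit element was present in 7 of the 8 promoters and in 15.9% of all promoters. Hspb1 had 2-unit elements at 129 to 122 and 109 to 102 bases before the start, Hspb6 at 239 to 232 and 149 to 142, and Dnajb1 at 11 to 4 with another inside the transcript. Bag3 had 1 at 132 to 125 bases before the start and Hspb8 1 at 23 to 16. Hspb7 had no match, which says only that these letters are not in this window, and the letters TATAAA, searched on both strands, were in the Hspb6 and Hspb7 windows and in 14.2% of all promoters. These matches describe the sequence and are not evidence of binding.

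To find what hypertrophic stimulation does to these genes, siNeg.PE was compared with siNeg. All 5 small heat shock proteins rose, Cryab and Hspb6 by over 1.5-fold, and so did Hsp90aa1 and Hsph1, whereas Bag3 fell. Of the 10 genes, 7 passed an adjusted p under 0.05 upwards and 1 downwards, against 25.2% and 24.3% of the 13719 genes tested, or 49.5% in either direction. With the study's added threshold of a 1.5-fold change, 3 of 10 were called higher and 0 lower, against 12.4% and 8.24% of genes tested, or 20.7% in either direction (quasi-likelihood test of edgeR, adjusted by Benjamini-Hochberg over all genes, here and below). The median log2 fold change of the 5 small heat shock proteins was 0.45, against 0.00016 for all genes tested. In each of the 10 genes the PE-treated libraries were apart from the untreated ones, and 58.6% of all genes tested had no overlap either.

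Cryab, αB-crystallin, a chaperone of desmin and titin that is among the most abundant proteins of the heart, measured 886, 911 and 833 CPM in the siNeg libraries and 1828, 1819 and 1505 CPM in siNeg.PE. Every siNeg.PE library lay well above every siNeg library. The log2 fold change was 0.96 (SE 0.0798, edgeR adjusted p = 6.78e-05). Hspb6, also known as Hsp20, a partner of 14-3-3 proteins once phosphorylated, went from 344, 362 and 367 CPM in siNeg to 644, 594 and 601 CPM in siNeg.PE. Both groups were tight and far apart. Its log2 fold change was 0.77 (SE 0.0535, edgeR adjusted p = 3.05e-05).

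Hspb1, known as Hsp27 in man, which binds actin and is phosphorylated downstream of p38, was 319, 280 and 276 CPM in siNeg and 447, 420 and 338 CPM in siNeg.PE. The lowest siNeg.PE library was only a little above the highest siNeg library. Its log2 fold change was 0.45 (SE 0.102, edgeR adjusted p = 0.00768), under 1.5-fold. Hspb7, a small heat shock protein enriched in heart and skeletal muscle, measured 1655, 1713 and 1725 CPM in siNeg and 2478, 2317 and 2218 CPM in siNeg.PE (log2 fold change 0.45, SE 0.0560, edgeR adjusted p = 0.000473). Hspb8, which works in a complex with Bag3, measured 173, 178 and 186 CPM in siNeg and 256, 253 and 218 CPM in siNeg.PE (log2 fold change 0.43, SE 0.0658, edgeR adjusted p = 0.00129). For Hspb1, Hspb8 and Cryab the third siNeg.PE library was clearly the lowest of its group.

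Among the ATP-driven chaperones, Hsp90aa1, the inducible cytosolic HSP90α, had the largest change and the widest spread. It measured 105, 159 and 172 CPM in siNeg and 249, 325 and 331 CPM in siNeg.PE. The first library of each group was the lowest, and the groups did not overlap. Its log2 fold change was 1.04 (SE 0.182, edgeR adjusted p = 0.00231). Hsph1, the HSP110 protein that acts as nucleotide exchange factor for HSP70, was 65.4, 65.6 and 72.7 CPM in siNeg and 91.0, 97.4 and 96.0 CPM in siNeg.PE (log2 fold change 0.47, SE 0.0633, edgeR adjusted p = 0.000684). Hspa8, the constitutive HSC70 that carries most of the folding load in unstressed cells, was 952, 1000.2 and 1039 CPM against 1106, 1129 and 1042 CPM. These groups barely parted, and Hspa8 did not pass the test (log2 fold change 0.12, SE 0.0547, edgeR adjusted p = 0.104). Dnajb1, or Hsp40, the J-domain partner of HSP70, was 89.2, 86.2 and 87.1 CPM in siNeg and 83.2, 82.3 and 78.3 CPM in siNeg.PE, and its log2 fold change of -0.12 (SE 0.0508, edgeR adjusted p = 0.0816) did not pass either. Hspa8 and Hsp90aa1 have processed pseudogenes and close relatives, and their estimated counts are not whole numbers, so their levels are less certain than those of the other 8 genes.

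Bag3, the BAG-domain cofactor that couples HSP70 to small heat shock proteins and directs damaged sarcomere proteins to autophagy, went the other way. Its levels were 312, 295 and 323 CPM in siNeg and 272, 248 and 242 CPM in siNeg.PE. Each siNeg.PE library was below each siNeg library, although the gap between the nearest libraries was small. The log2 fold change was -0.30 (SE 0.0600, edgeR adjusted p = 0.00432). Hspb8, its complex partner, therefore rose in the libraries in which Bag3 fell.

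**Figure D2:**
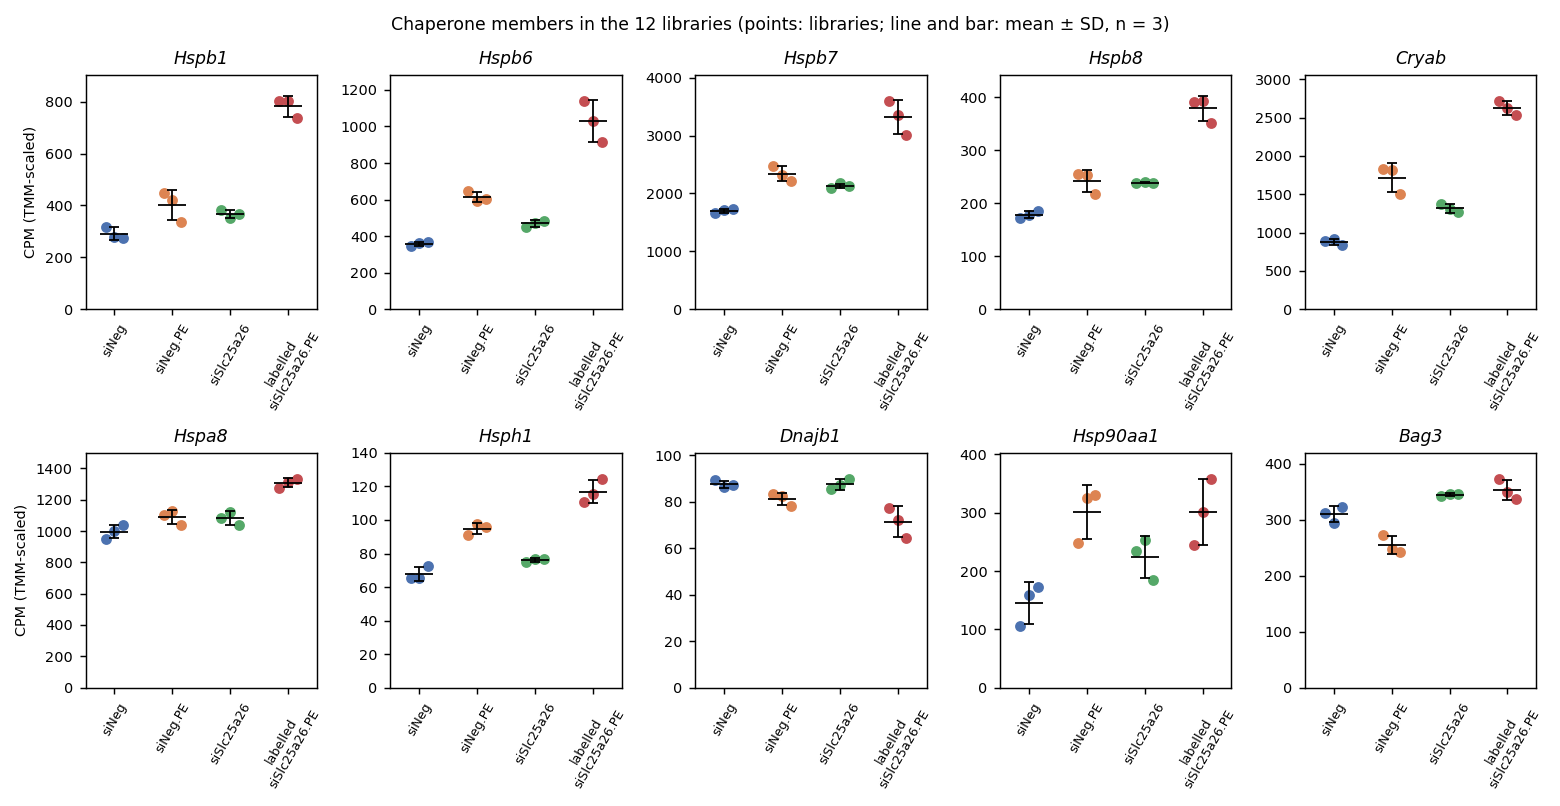
TMM-scaled CPM of each gene in the 12 libraries, with 1 panel per gene, points for libraries, lines at the group means and bars of 1 SD (n = 3). The libraries labelled siSlc25a26.PE are above all other groups for the 5 small heat shock proteins, Hspa8 and Hsph1, and below them for Dnajb1 (64.2 to 77.4 CPM).

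The effect of the siRNA in unstimulated cells was read from siSlc25a26 against siNeg. The 5 small heat shock proteins were again all higher, by less than 1.5-fold, and Hsp90aa1 was higher by 1.51-fold. Of the 10 genes, 6 passed the adjusted p upwards and 0 downwards, against 23.3% and 21.7% of 13829 genes tested, or 45% in either direction. Called at 1.5-fold were 1 gene higher and 0 lower, against 8.92% and 7.2% of genes tested, or 16.1% in either direction. The median log2 fold change of the 5 small heat shock proteins was 0.37, and 0.015 over all genes tested. In 8 of the 10 genes the groups did not overlap, against 56.9% of genes tested. This comparison and that of PE in siNeg share the siNeg libraries.

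Cryab measured 1376, 1309 and 1263 CPM in siSlc25a26. These libraries lay between those of siNeg and siNeg.PE, and the log2 fold change of 0.56 (SE 0.0580, edgeR adjusted p = 9.35e-05), a 1.47-fold difference, fell just short of the fold threshold. It was called when FPKM values were tested or when all 12 libraries were fitted together. Hspb8 varied least among the siSlc25a26 libraries, at 238, 241 and 239 CPM, with a log2 fold change of 0.39 (SE 0.0458, edgeR adjusted p = 0.000180). Hspb6 at 451, 474 and 484 CPM rose by 0.37 (SE 0.0509, edgeR adjusted p = 0.000517) on the log2 scale. Hspb1 at 381, 353 and 366 CPM and Hspb7 at 2098, 2174 and 2125 CPM each rose by 0.30 (SE 0.0656 and 0.0471, edgeR adjusted p = 0.00531 and 0.000950).

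Hsp90aa1 measured 234, 254 and 184 CPM in siSlc25a26. The lowest of these was close to the highest siNeg library of 172 CPM. Its log2 fold change was 0.60 (SE 0.174, edgeR adjusted p = 0.0214), and the call rested on individual libraries, since it was lost without siNeg replicate 1, siSlc25a26 replicate 1 or siSlc25a26 replicate 2. Bag3 (342, 346 and 346 CPM, log2 fold change 0.13, edgeR adjusted p = 0.0525) and Hsph1 (75.0, 76.9 and 76.7 CPM, log2 fold change 0.14, edgeR adjusted p = 0.0625) lay above siNeg without overlap but did not pass the test. Hspa8 (log2 fold change 0.09, edgeR adjusted p = 0.192) and Dnajb1 (log2 fold change -0.03, edgeR adjusted p = 0.663) overlapped with siNeg.

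Under PE, the libraries labelled siSlc25a26.PE were compared with siNeg.PE. The small heat shock proteins were higher there still, Hspb1 most, with 4 of the 5 above 1.5-fold, and Bag3, Hsph1 and Hspa8 were higher by less than that. Of the 10 genes, 8 passed the adjusted p upwards and 0 downwards, against 20.1% of 13671 genes tested in each direction and 40.1% in either. At 1.5-fold, 4 were called higher and 0 lower, against 7.71% and 8.1% of genes tested, or 15.8% in either direction. The median log2 fold change of the 5 small heat shock proteins was 0.64, against -0.0028 for all genes tested. In 9 of the 10 genes the groups did not overlap, against 52% of genes tested. This comparison shares siNeg.PE with that of PE in siNeg.

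In CPM, Hspb1 reached 804, 804 and 736 in the libraries labelled siSlc25a26.PE. The lowest of them was far above the highest siNeg.PE library of 447 CPM. The log2 fold change was 0.95 (SE 0.105, edgeR adjusted p = 0.000175). Hspb6 measured 1141, 1032 and 913 CPM, with a log2 fold change of 0.74 (SE 0.0857, edgeR adjusted p = 0.000236). Hspb8 measured 392, 394 and 352 CPM, with a log2 fold change of 0.64 (SE 0.0809, edgeR adjusted p = 0.000374), and Cryab 2721, 2622 and 2534 CPM, with a log2 fold change of 0.60 (SE 0.0890, edgeR adjusted p = 0.000854). Hspb7, at 3603, 3356 and 3016 CPM, rose by 0.50 (SE 0.0837, edgeR adjusted p = 0.00168), under 1.5-fold. The calls of Hspb8 and Cryab stood near the fold threshold. Without siNeg.PE replicate 3, or with FPKM values, 2 genes were called, Hspb1 and Hspb6.

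In the libraries labelled siSlc25a26.PE, Bag3 measured 373, 349 and 338 CPM, above siNeg.PE in each library, with a log2 fold change of 0.46 (SE 0.0709, edgeR adjusted p = 0.00101). Hsph1 measured 111, 116 and 124.5 CPM (log2 fold change 0.29, SE 0.0667, edgeR adjusted p = 0.00764), and Hspa8 1276, 1316 and 1333 CPM (log2 fold change 0.25, SE 0.0638, edgeR adjusted p = 0.0128). Hspa8 did not pass on the log2(FPKM + 1) scale (0.15, limma adjusted p = 0.057). Both groups of libraries were apart for each of these genes. Hsp90aa1, at 245, 301 and 358 CPM, covered the same range as siNeg.PE (log2 fold change -0.01, SE 0.145, edgeR adjusted p = 0.974). Dnajb1, at 77.4, 72.3 and 64.2 CPM, lay below every siNeg.PE library, and its log2 fold change of -0.20 (SE 0.0771, edgeR adjusted p = 0.0681) did not pass. It passed with FPKM values, with all 12 libraries in the fit (adjusted p = 0.0276) and with the stricter count filter (adjusted p = 0.0447), always downwards.

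PE in cells with the siRNA that the labels name siSlc25a26 was read from the libraries labelled siSlc25a26.PE against siSlc25a26. All 5 small heat shock proteins were called, Hspb6, Hspb1 and Cryab at over 2-fold, together with Hsph1, and Dnajb1 fell by less than 1.5-fold. Of the 10 genes, 8 passed the adjusted p upwards and 1 downwards, against 26.4% and 26% of 13776 genes tested, or 52.4% in either direction. At 1.5-fold, 6 were called higher and 0 lower, against 10.1% and 10.4% of genes tested, or 20.5% in either direction. Of all called genes in this comparison 49.2% were higher, but only 27.4% and 27.1% when log2(FPKM + 1) or log2(FPKM + 0.1) was tested. On these scales the all-gene median, in log2, went from -0.0036 to -0.12 and -0.17. On either FPKM scale 3 of the 10 genes were called, Hspb1, Hspb6 and Cryab. The groups did not overlap in 8 of the 10 genes, against 61% of genes tested. The siSlc25a26 libraries also serve in the comparison without PE, and those labelled siSlc25a26.PE in the comparison under PE.

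Hspb6 had the largest log2 fold change of the 10 genes here, 1.14 (SE 0.0762, edgeR adjusted p = 4.25e-06), with mean CPM of 469 ± 17.1 in siSlc25a26 and 1029 ± 114 in the libraries labelled siSlc25a26.PE (SD, n = 3). Hspb1 followed with 1.10 (SE 0.0530, edgeR adjusted p = 6.5e-07), from 367 ± 14.0 to 781 ± 38.9 CPM. Cryab rose by 1.01 (SE 0.0506, edgeR adjusted p = 8.19e-07), from 1316 ± 57.1 to 2626 ± 93.5 CPM. Hspb8 and Hspb7 rose by 0.67 and 0.65 (edgeR adjusted p = 1.09e-05 and 3.94e-05), and Hsph1 by 0.63 (SE 0.0588, edgeR adjusted p = 3.16e-05). Hsph1 was no longer called without siSlc25a26.PE replicate 3, although it kept its adjusted p.

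Hspa8 rose by 0.29 (SE 0.0492, edgeR adjusted p = 0.00121), a change that did not pass with FPKM values. Dnajb1 fell by 0.28 on the log2 scale (SE 0.0689, edgeR adjusted p = 0.00749), from 87.4 ± 2.18 to 71.3 ± 6.66 CPM, and it passed in 6 of 6 fits that each left out a library. Hsp90aa1 had overlapping groups and a log2 fold change of 0.44 (SE 0.148, edgeR adjusted p = 0.0326), which passed in only 2 of 6 such fits and failed with DESeq2 (adjusted p = 0.0639). The CPM of Bag3 was 345 ± 2.75 in siSlc25a26 and 353 ± 18.02 in the libraries labelled siSlc25a26.PE, at a log2 difference of 0.04 (edgeR adjusted p = 0.482), and on the log2(FPKM + 1) scale the sign turned, to -0.13 (limma adjusted p = 0.0321). Its direction with PE in these cells therefore depends on the scaling.

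**Figure D3:**
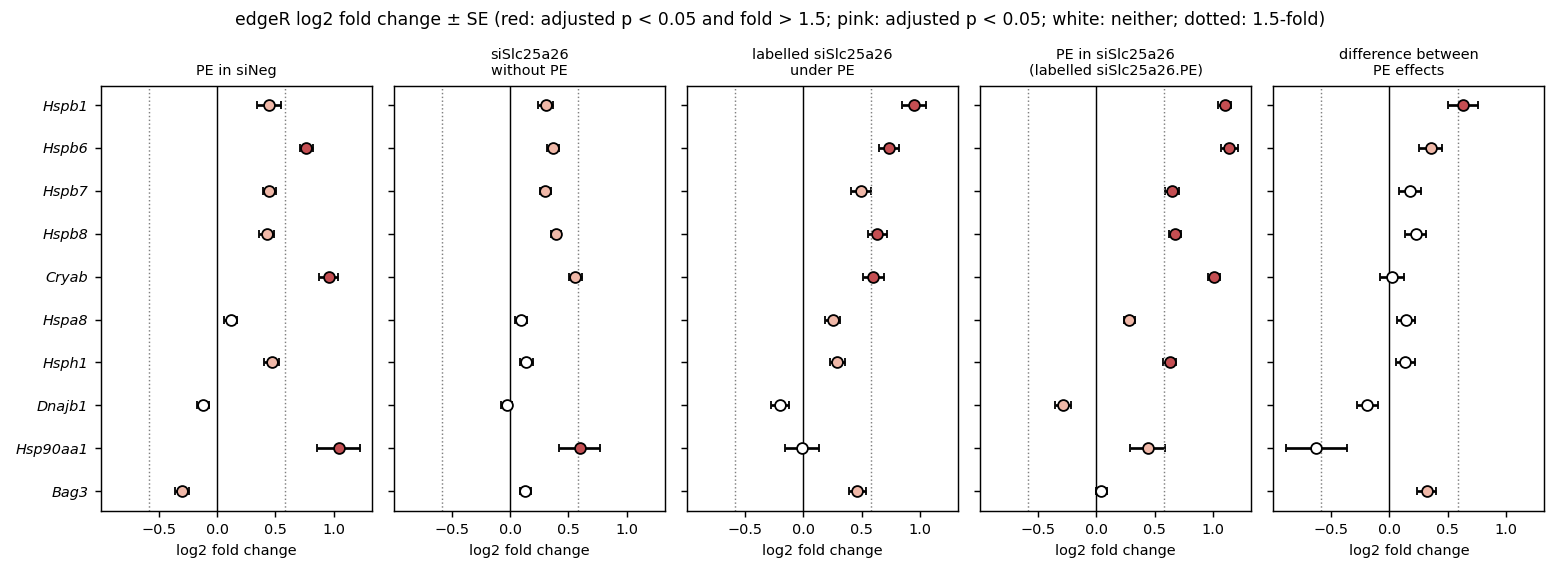
edgeR log2 fold changes of the 10 genes with bars of 1 SE in the 4 comparisons between groups and, at the right, the difference between the PE effects. Filled red points passed an adjusted p under 0.05 and 1.5-fold, pink points the adjusted p only and white points neither, and dotted lines mark 1.5-fold. The 5 small heat shock proteins are right of 0 in all 4 comparisons, and Bag3 is left of 0 with PE in siNeg (-0.30).

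Whether the PE effect differed between cells with either siRNA was tested directly, as the PE effect in siSlc25a26, taken to the libraries labelled siSlc25a26.PE, less that in siNeg, in a fit of all 12 libraries. The PE effect was higher for 3 genes, Hspb1, Hspb6 and Bag3, and lower for 0, at an adjusted p under 0.05, against 5.48% and 5.73% of 14097 genes tested, or 11.2% in either direction. Only Hspb1 was also past 1.5-fold, against 2.16% of genes tested in that direction, 3.34% in the other and 5.5% in either. Of all genes called, 39.3% had the higher effect, and 23.4% and 22.1% on the log2(FPKM + 1) and log2(FPKM + 0.1) scales, where the median of all genes moved from -0.045 to -0.11 and -0.14.

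For Hspb1 the difference was 0.63 on the log2 scale (SE 0.129, edgeR adjusted p = 0.00819), from a PE effect of 0.45 in siNeg and of 1.10 in siSlc25a26. It kept an adjusted p under 0.05 in 12 of 12 fits that each left out a library, with log2 differences of 0.53 to 0.71, but was under 1.5-fold without siNeg replicate 1 or siNeg.PE replicate 3, and also on either FPKM scale. For Hspb6 the difference was 0.35 (SE 0.102, edgeR adjusted p = 0.0426). It passed in 3 of those 12 fits. For Bag3, which fell by 0.30 with PE in siNeg, the difference was 0.32 (SE 0.0811, edgeR adjusted p = 0.0255), and it passed in 8 of the 12. Neither of these passed on the log2(FPKM + 1) scale (limma adjusted p = 0.105 and 0.0551).

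For Cryab the difference was 0.03 (SE 0.103, edgeR adjusted p = 0.900), the smallest of the 10. For Hspb7 and Hspb8 it was 0.18 and 0.23 (edgeR adjusted p = 0.238 and 0.141), and for Hspa8 and Hsph1 0.14 each (edgeR adjusted p = 0.244 and 0.321). Dnajb1 had -0.19 (SE 0.0889, edgeR adjusted p = 0.202) and passed on the FPKM scales. Hsp90aa1 had the largest negative estimate, -0.62, with the largest error (SE 0.265, edgeR adjusted p = 0.155). A value that misses the threshold does not show equal PE effects for these genes.

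Summed over the 5 small heat shock proteins, the level was 3402 ± 36.1 CPM in siNeg, 4524 ± 40.9 in siSlc25a26, 5312 ± 395 in siNeg.PE and 8140 ± 558 in the libraries labelled siSlc25a26.PE (SD, n = 3). These genes thus took 0.350% of all counts in siNeg and 0.762% in the libraries labelled siSlc25a26.PE. No library of any group overlapped with those of another group. Since cardiomyocyte markers moved with PE, the sum was also divided by the summed CPM of the 10 cardiomyocyte markers in the same library, a ratio chosen after the data were seen. It ran from 0.134 to 0.149 in siNeg, from 0.175 to 0.203 in siNeg.PE, from 0.195 to 0.227 in siSlc25a26 and from 0.284 to 0.31 in the libraries labelled siSlc25a26.PE. On this ratio siNeg.PE and siSlc25a26 overlapped, siNeg was below both and the libraries labelled siSlc25a26.PE were above both. The log2 difference with PE in siNeg was 0.42 on the ratio and 0.64 on the sum, and with PE in siSlc25a26 0.49 and 0.85. Between siSlc25a26 and siNeg it was 0.58 on the ratio and 0.41 on the sum, and under PE 0.64 and 0.62.

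**Figure D4:**
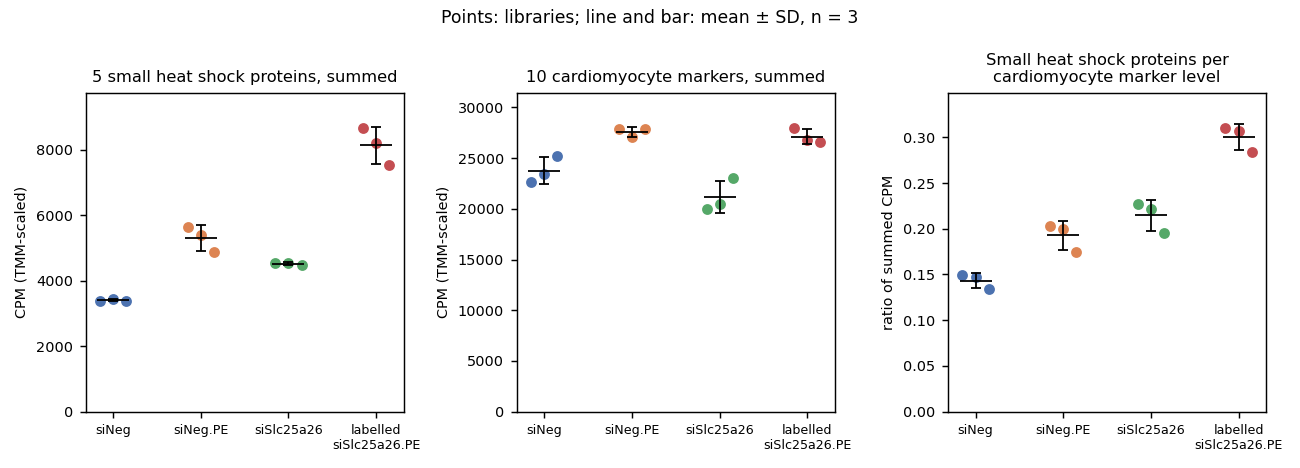
Summed TMM-scaled CPM of the 5 small heat shock proteins (left), of 10 cardiomyocyte markers (middle) and their ratio (right) by group, with points for libraries, lines at the means and bars of 1 SD (n = 3). The sum parts all 4 groups, and the ratio is lowest in siNeg (0.134 to 0.149) and highest in the libraries labelled siSlc25a26.PE (0.284 to 0.31).

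The other genes of the chaperone network were taken from 10 lists with 75 genes, of which 72 were tested in each comparison. With PE in siNeg, 35 of the 72 passed the adjusted p upwards and 10 downwards, and 9 were called higher and 0 lower at 1.5-fold. Of all genes tested 25.2% and 24.3% passed and 12.4% and 8.24% were called, so the called share of these lists was near that of all genes upwards. Their median log2 fold change was 0.16. With PE in siSlc25a26, 39 passed upwards and 7 downwards, and 12 were called higher and 0 lower, with a median of 0.19, against 26.4% and 26% of all genes passing and 10.1% and 10.4% called. Between siSlc25a26 and siNeg 14 passed upwards and 16 downwards, with 1 called each way and a median of -0.043, against 23.3% and 21.7% of all genes passing and 8.92% and 7.2% called. In the libraries labelled siSlc25a26.PE against siNeg.PE, 16 passed upwards and 10 downwards, with 4 called higher, 2 lower and a median of 0.050, against 20.1% of all genes passing in each direction and 7.71% and 8.1% called. The medians of all genes tested were between -0.0036 and 0.015 in these 4 comparisons.

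**Figure D5:**
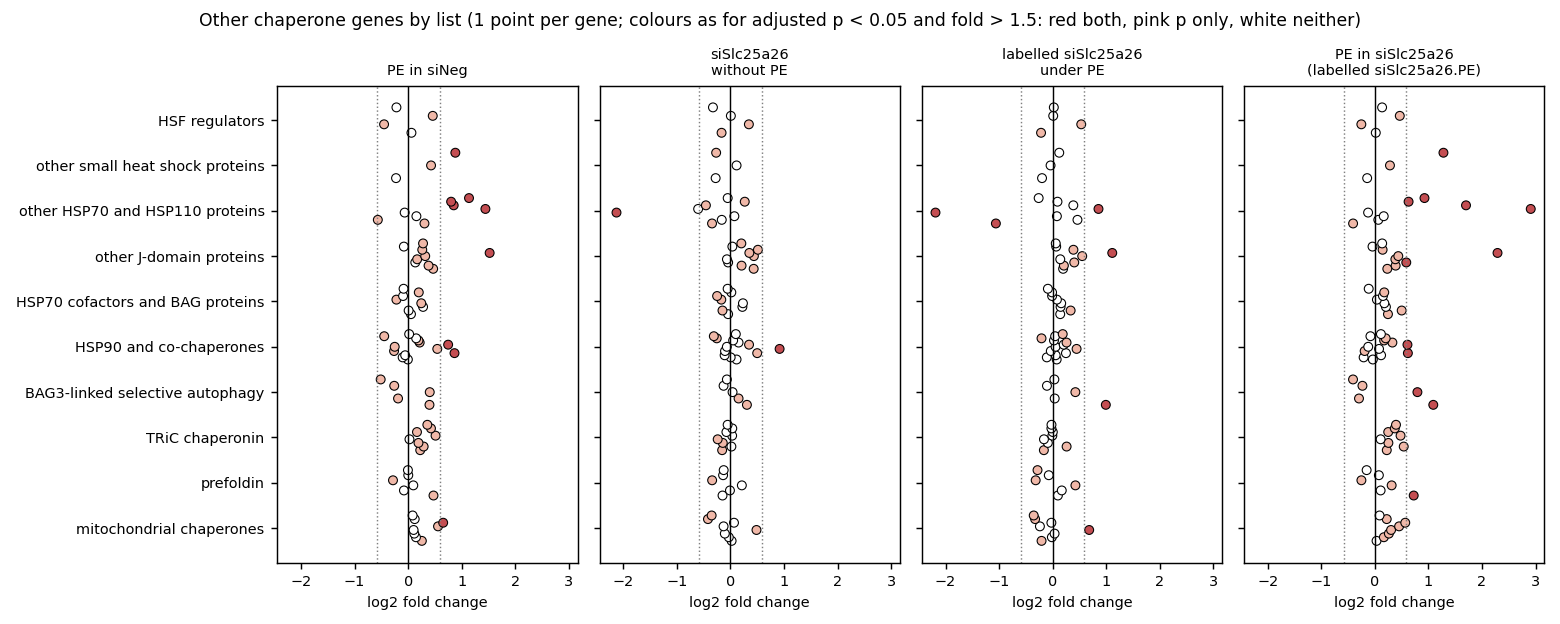
edgeR log2 fold changes of 72 other chaperone genes, 1 point each, by list and comparison. Red points passed an adjusted p under 0.05 and 1.5-fold, pink points the adjusted p only and white points neither, and dotted lines mark 1.5-fold. With PE in siNeg 9 points are red, all to the right, among them 4 of the HSP70 and HSP110 list.

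Of the genes listed by symbol as other small heat shock proteins, Hspb2, Hspb3 and Hspb11 were tested. Hspb3, a muscle form that pairs with Hspb2, was called with PE in siNeg, from 42.4 ± 2.18 to 78.8 ± 15.9 CPM (log2 fold change 0.88, edgeR adjusted p = 0.00110), and with PE in siSlc25a26 (log2 fold change 1.28, edgeR adjusted p = 1.41e-06). Hspb2, the neighbour of Cryab in a head-to-head gene pair, is named outside the naming rule, after its values were seen. It was 185 ± 1.78 CPM in siNeg and 251 ± 21.7 in siNeg.PE, at a log2 difference of 0.43 (edgeR adjusted p = 0.00107). Between the libraries labelled siSlc25a26.PE and siNeg.PE, Hspb2 differed by -0.04 (SE 0.0910, edgeR adjusted p = 0.759), whereas Cryab rose by 0.60. Hspb3 did not pass there either (log2 fold change 0.12, edgeR adjusted p = 0.511). Between siSlc25a26 and siNeg, Hspb3 was lower, unlike the 5 members (log2 fold change -0.27, edgeR adjusted p = 0.0177). Hspb2 did not pass in that comparison (log2 fold change 0.11, edgeR adjusted p = 0.0649).

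In the HSP70 and HSP110 list, 4 of 8 tested genes were called higher with PE in siNeg and 4 with PE in siSlc25a26, against 12.4% and 10.1% of all genes tested. Hspa2, an HSP70 known for its part in spermatogenesis, went from 6.68 ± 0.376 CPM in siNeg to 12.2 ± 1.98 in siNeg.PE (log2 fold change 0.85, edgeR adjusted p = 0.0014). Hspa4l, an HSP110 relative of Hsph1, rose by 1.14 (edgeR adjusted p = 0.00735) from 5.35 ± 1.54 CPM, and Hspa1l, also an HSP70 best known from testis, by 1.44 (edgeR adjusted p = 0.00121) from 1.22 ± 0.286 CPM. Hspa1l rose by 2.91 with PE in siSlc25a26 (edgeR adjusted p = 2.58e-06), and the difference between its PE effects was 1.44 (edgeR adjusted p = 0.00662). Hspa1a, the stress-inducible HSP70, was low throughout, at 3.65 ± 0.453 CPM in siNeg and 3.51 ± 1.07 in siNeg.PE. It was lower in siSlc25a26, at 0 to 2.05 CPM (log2 fold change -2.13, edgeR adjusted p = 0.0397), and in the libraries labelled siSlc25a26.PE, at 0.585 to 1.121 CPM (log2 fold change -2.19 against siNeg.PE, edgeR adjusted p = 0.000790). Its near-identical copy Hspa1b was listed but has no entry under that symbol in the deposited data, so the Hspa1a values are uncertain. Hspa12a, a distant HSP70 relative, was 2.09-fold lower in the libraries labelled siSlc25a26.PE than in siNeg.PE (edgeR adjusted p = 4.08e-05).

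Among the 9 other J-domain proteins, Dnajb5, known to bind the class II histone deacetylase HDAC4 in cardiomyocytes, had the largest change in each comparison in which it was called. It went from 40.6 ± 2.76 CPM in siNeg to 118 ± 20.9 in siNeg.PE (log2 fold change 1.52, edgeR adjusted p = 5.98e-05). In the libraries labelled siSlc25a26.PE it reached 256 ± 19.2 CPM, 2.16-fold above siNeg.PE (edgeR adjusted p = 0.000188). The difference between its PE effects was 0.74 (edgeR adjusted p = 0.00847). Dnaja4 was also called with PE in siSlc25a26 (1.5-fold, edgeR adjusted p = 1.27e-05), with a change right at the fold threshold. Between siSlc25a26 and siNeg, 6 of the 9 genes passed the adjusted p upwards and 0 downwards, against 23.3% and 21.7% of all genes. In the libraries labelled siSlc25a26.PE against siNeg.PE, 5 passed upwards and 0 downwards, against 20.1% of all genes in each direction.

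In the HSP90 list of 13 genes, the co-chaperones Chordc1 and Ppid were called higher with PE in siNeg (log2 fold changes 0.86 and 0.75, edgeR adjusted p = 0.000914 and 0.00175) and in siSlc25a26 (0.62 and 0.61). Fkbp5, an HSP90 cofactor of steroid receptors, was called between siSlc25a26 and siNeg, from 10.03 ± 1.119 to 19.3 ± 1.06 CPM (log2 fold change 0.92, edgeR adjusted p = 0.000141). Hsp90ab1, the constitutive HSP90β, is named outside the naming rule as the paralog of Hsp90aa1. It fell with PE in siNeg from 1894 ± 20.4 to 1604 ± 15.5 CPM (log2 fold change -0.25, edgeR adjusted p = 0.00374), while Hsp90aa1 rose by 1.04. Reads shared between the 2 paralogs could have been split by the authors' counting.

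Of the 5 genes linked to BAG3-directed autophagy, Flnc, the filamin C client of Bag3, was called higher in the libraries labelled siSlc25a26.PE against siNeg.PE, 1817 ± 28.1 against 907 ± 46.2 CPM (log2 fold change 0.99, edgeR adjusted p = 8.16e-06), and against siSlc25a26 (log2 fold change 1.09, edgeR adjusted p = 2.72e-07). Synpo2, the adaptor that joins Bag3 to autophagosome formation, was called with PE in siSlc25a26 (log2 fold change 0.79, edgeR adjusted p = 1.36e-06). With PE in siNeg, 2 of these 5 genes passed the adjusted p upwards and 3 downwards, with a median log2 fold change of -0.19. Of all genes tested 25.2% and 24.3% passed. With PE in siSlc25a26 it was again 2 upwards and 3 downwards, with a median of -0.23, against 26.4% and 26% of all genes. Those downwards were Sqstm1, Vps16 and Vps18 in both, named outside the naming rule. The list of HSP70 cofactors and BAG proteins had 0 of 8 genes called in each of the 4 comparisons, with 2, 0, 1 and 3 passing the adjusted p upwards and 1, 3, 0 and 0 downwards, in the order PE in siNeg, siSlc25a26 without PE, siSlc25a26 under PE and PE in siSlc25a26. In these comparisons 15.8% to 20.7% of all genes tested were called and 40.1% to 52.4% passed in either direction. Of the 4 HSF regulators 0 were called. Hsf1, the activator of heat shock genes, is named for that role, outside the naming rule. It was 41.9 ± 1.74 CPM in siNeg and 30.9 ± 2.65 in siNeg.PE (log2 fold change -0.45, edgeR adjusted p = 0.00188), and 54.2 ± 3.62 in siSlc25a26 and 45.1 ± 2.09 in the libraries labelled siSlc25a26.PE. The log2 difference with the siRNA was 0.34 without PE and 0.53 under PE (edgeR adjusted p = 0.00358 and 0.00121). Hsf1 was thus lower with PE, in which the small heat shock proteins rose, and higher with the siRNA, in which they rose as well. The part of Hsf1 in their levels was not tested.

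For 9 of the 10 members, the gene whose log2 CPM followed the member most closely over the 12 libraries, among 9322 other genes with a mean of at least 10 CPM, had a Pearson's r of 0.972 to 0.994. They were Dot1l for Hspb1, Btg2 for Hspb6, Inka2 for Hspb7, Aig1 for Hspb8, Plscr1 for Cryab, Tmem185a for Hspa8, Atrn for Hsph1, Npepl1 for Dnajb1 and Smox for Bag3. Of these 9, the closest matches were Plscr1 with Cryab and Atrn with Hsph1 (r = 0.994 each) and the loosest was Tmem185a with Hspa8 (r = 0.972). These values describe the libraries, which share 4 groups and were screened against many genes, and carry no test.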

How the data were processed

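RNA of NRVMs was sequenced by BGI. The submitters' processing notes list HISAT, Bowtie2 and the build Rnor_6.0, and the counting program, annotation and strandedness are not given in the sources used here. The authors deposited estimated counts per gene, of which 20.8% to 21.9% per library are not whole numbers, and FPKM values, which they scaled by gene length and library total. Here the counts were rounded and tested with edgeR 4.0.16 in R 4.3.3 (TMM, filterByExpr, quasi-likelihood F-test, Benjamini-Hochberg adjustment over all genes), with only the compared groups in each fit and all 12 libraries for the difference between PE effects. Genes were called at the study's thresholds, an adjusted p under 0.05 and a fold above 1.5. The standard error is the log2 fold change over the root of F. CPM values use TMM factors of all 12 libraries, and log2 CPM a prior count of 2. Total counts of 24770972 to 28709049 make counting error small for these genes, so the spread between libraries limits the precision. The lowest chi-square per gene between replicates was 5.34, so no library was a repeat deposit. Groups and replicate numbers came from the sample titles.

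The members and gene lists were chosen with earlier results of these data known. The naming rule took the 10 members, Slc25a26 and Nppa, and, from each list, at most 3 called genes per direction by log2 fold change. Alternatives were DESeq2 1.42.0, limma 3.58.1 with voom, DESeq2's size factors, log2(FPKM) tested with limma (pseudocounts of 1 and 0.1), a block for the replicate number, testing without a filter or with a minimum of 10 counts per library, a joint fit of the 12 libraries, dropping the fold threshold and leaving out each library. Gene names are the tables' own, and 91.8% of identifiers matched RefSeq. The procedure was tested on simulated data. The same-numbered libraries were not treated as pairs. The closest match of Hsp90aa1 is not reported here.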

Additional observations from a re-analysis of the deposited data

Results flagged for a closer look

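The PE effect differed between siNeg and siSlc25a26 for 3 of the 10 genes by edgeR's quasi-likelihood test of the difference over 12 libraries, against 11.2% of all genes tested. For Hspb1 the PE effect was higher by 0.63 on the log2 scale in siSlc25a26 (adjusted p = 0.00819), for Hspb6 by 0.35 (adjusted p = 0.0426) and for Bag3 by 0.32 (adjusted p = 0.0255). Leaving out each of the 12 libraries in turn, Hspb1 passed in 12 fits, Bag3 in 8 and Hspb6 in 3. On the log2(FPKM + 1) scale Hspb1 passed, and Hspb6 and Bag3 did not (limma adjusted p = 0.105 and 0.0551). All 3 rest on the libraries labelled siSlc25a26.PE, in which Slc25a26 itself was not lower than in siNeg.PE. Marker genes of other cells also had a higher PE effect there at an adjusted p under 0.05, namely 3 of 10 fibroblast, 4 of 6 mural, 3 of 7 macrophage and 1 of 7 endothelial markers tested, with 0 lower, against 5.48% of all genes higher and 5.73% lower. Of the 10 cardiomyocyte markers 2 had a higher effect and 1 a lower one. The part of these markers in the differences was not tested.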

How the results depend on the processing

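Over 50 member results (10 genes in 5 comparisons), the replicate block left 46 on the same side of the adjusted p threshold. With it, Hspa8 (0.12, adjusted p = 0.038) and Dnajb1 (-0.12, adjusted p = 0.028) passed with PE in siNeg, Dnajb1 passed under PE (-0.20, adjusted p = 0.0123), and Hsp90aa1 failed with PE in siSlc25a26 (0.43, adjusted p = 0.0674), all by edgeR. Same-numbered libraries correlated by -0.0913 to 0.217 in their deviations from the group means, and 5, 2, 4 and 0 of 6 libraries were closest to their own number. The study names no pairing by replicate number, so the numbers were not taken as pairs. The values given here cannot exclude a pairing. The block left 3, 1, 4, 6 and 1 members called, as without it, in the order PE in siNeg, siSlc25a26 without PE, siSlc25a26 under PE, PE in siSlc25a26 and the difference between PE effects.

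Without the fold threshold, 8 members were called with PE in siNeg, 6 for siSlc25a26 without PE, 8 under PE and 3 for the difference. On both FPKM scales 2 were called without PE, 2 under PE, 3 with PE in siSlc25a26 and 0 for the difference, and with all 12 libraries fitted 2 without PE. Leaving out each library gave 3 in all fits of PE in siNeg, 0 to 2 without PE, 2 to 4 under PE, 5 to 6 for PE in siSlc25a26 and 0 to 1 for the difference. Signs turned only where the reported value was near 0. Bag3 for PE in siSlc25a26 turned to -0.13 on both FPKM scales and passed there (limma adjusted p = 0.0321 and 0.0338). The other turned values did not pass. Dnajb1 turned without PE on both FPKM scales (0.028 and 0.029), and Cryab for the difference on both (-0.080). Cryab also turned without siNeg replicate 2 (-0.00303), siNeg.PE replicate 3 (-0.049) or siSlc25a26.PE replicate 1 (-0.00125). Hsp90aa1 turned under PE without siNeg.PE replicate 2 (0.044), siNeg.PE replicate 3 (0.042) or siSlc25a26.PE replicate 1 (0.12). Over the fits that each left out a library, Hsp90aa1 under PE ranged from -0.14 to 0.12 and the Cryab difference from -0.049 to 0.073. The counts of all called genes moved by over 1.5 times on log2(FPKM + 1), from 2838 to 1590 with PE in siNeg, 2229 to 1284 without PE and 2162 to 1379 under PE, and without the fold threshold, to 6785, 6221, 5488, 7219 for PE in siSlc25a26 (from 2825) and 1581 for the difference (from 776). The causes of these changes were not tested. The 3 libraries per group limit the precision, most for Hsp90aa1.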

Other observations

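Of the 8 TRiC chaperonin subunits, which fold actin and tubulin, 7 passed the adjusted p upwards with PE in siNeg and 7 with PE in siSlc25a26 (edgeR, median log2 fold changes 0.26 and 0.31), against 25.2% and 26.4% of all genes passing upwards. Past 1.5-fold were 0 of them, against 12.4% and 10.1% of all genes called higher. Between siSlc25a26 and siNeg, 3 of the 8 passed downwards and 0 upwards, against 21.7% and 23.3% of all genes. Of the 6 prefoldin subunits, which hand actin and tubulin to TRiC, Pfdn1 was called with PE in siSlc25a26, from 84.5 ± 5.69 to 139 ± 3.12 CPM (SD, n = 3 each, log2 fold change 0.72, edgeR adjusted p = 1.6e-05).

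Of the 8 mitochondrial chaperones, Hspd1, the HSP60 chaperonin, was called with PE in siNeg, from 208 ± 17.9 to 329 ± 21.9 CPM (log2 fold change 0.65, edgeR adjusted p = 0.000389). Grpel2, a nucleotide exchange factor of mitochondrial HSP70, was called in the libraries labelled siSlc25a26.PE against siNeg.PE, 10.7 ± 0.766 against 6.65 ± 0.474 CPM (log2 fold change 0.68, edgeR adjusted p = 0.00110), while 3 of the 8 passed downwards in that comparison, against 20.1% of all genes. With PE in siSlc25a26, 6 of the 8 passed upwards and 0 were called, against 26.4% of all genes passing upwards and 20.5% called in either direction.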
